A study of Mus musculus with 8 samples.

Results

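The chemokine and chemokine receptor genes of the mouse liver are described here across livers given fibroblast growth factor 21 or its vehicle. Members were all genes of the deposited table whose symbol starts with Ccl, Cxcl, Cx3cl, Xcl, Ccr, Cxcr, Cx3cr, Xcr or Ackr followed by a digit. This gave 61 of 30266 genes, namely 36 ligands, 19 signalling receptors, 4 atypical receptors (Ackr1 to Ackr4) and 2 ligand pseudogenes. All 61 had at least 1 read in the 8 libraries used. Livers came from male mice 8 weeks old, and every animal of both groups was labelled Mdr2-/-. The vehicle group, labelled PBS, and the group labelled rFGF21, given the recombinant hormone at 1.0 mg/kg for 4 h, had 4 libraries each. The deleted gene, now called Abcb4, encodes the protein that moves phospholipid into bile, and its loss leads to cholestatic liver injury. No group with an intact gene is analysed here, and the sources at hand do not state strain, route of dosing or the allele of the deletion. The labels call the libraries separate samples and do not tie each to a different mouse, so p-values reflect the spread among these samples, part of which may be technical.

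Chemokines are small secreted proteins that guide leukocytes through G-protein-coupled receptors, and most belong to the CC or CXC class by the spacing of their first cysteines. Ligands and receptors are shared in overlapping sets: CXCR2 reads the neutrophil attractants CXCL1, CXCL2, CXCL3 and CXCL5, CCR2 reads the monocyte attractants CCL2, CCL7 and CCL12, and atypical receptors bind ligands and remove or transport them without G-protein signalling. In bile duct disease, cholangiocytes, stellate cells, sinusoidal endothelium, Kupffer cells and hepatocytes can all make chemokines, and several ligand genes are targets of the transcription factor NF-kB.

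The sequence just upstream of 4 ligand genes is printed because letters of the NF-kB type were found there in Cxcl1 and in its relatives Cxcl2 and Cxcl3, which lie side by side on chromosome 5, and in Ccl20; the window of Cxcl14, which had the smallest p of all members, is shown as a contrast with no such match. Capitals mark every match to the NF-kB type motif searched (GGG, any 2 bases, then TTTCC) on either strand. Sequences are from RefSeq on GRCm38.p6 and run 5′ to 3′ on the gene's own strand. They end at the RefSeq start, or before a GENCODE M21 exon of the gene that begins earlier. This left out the last 4 bases before the RefSeq start of Cxcl1 and the last 28 before that of Cxcl2. Positions below are counted from the RefSeq start and so include these bases.

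Cxcl1 (chr5:90890995-90891240, plus strand): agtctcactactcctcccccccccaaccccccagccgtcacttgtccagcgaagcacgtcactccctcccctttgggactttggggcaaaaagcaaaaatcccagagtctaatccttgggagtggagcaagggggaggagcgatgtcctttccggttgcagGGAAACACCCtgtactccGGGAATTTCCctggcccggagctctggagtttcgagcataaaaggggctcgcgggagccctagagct
Cxcl2 (chr5:90903649-90903870, plus strand): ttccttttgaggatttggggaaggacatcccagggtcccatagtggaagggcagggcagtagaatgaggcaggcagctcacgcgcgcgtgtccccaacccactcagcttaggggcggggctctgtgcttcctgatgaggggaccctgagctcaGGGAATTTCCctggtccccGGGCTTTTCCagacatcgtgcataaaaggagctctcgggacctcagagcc
Cxcl3 (chr5:90785851-90786100, plus strand): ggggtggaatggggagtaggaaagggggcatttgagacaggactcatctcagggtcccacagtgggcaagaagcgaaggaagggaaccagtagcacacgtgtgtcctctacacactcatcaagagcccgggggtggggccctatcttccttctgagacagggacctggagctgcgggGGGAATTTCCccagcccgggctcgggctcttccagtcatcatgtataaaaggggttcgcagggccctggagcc
Ccl20 (chr1:83116516-83116765, plus strand): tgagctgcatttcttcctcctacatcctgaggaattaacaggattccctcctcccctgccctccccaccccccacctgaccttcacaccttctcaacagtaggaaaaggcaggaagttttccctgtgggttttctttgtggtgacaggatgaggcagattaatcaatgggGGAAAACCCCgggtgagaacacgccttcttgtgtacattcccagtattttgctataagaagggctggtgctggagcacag
Cxcl14 (chr13:56296552-56296801, minus strand): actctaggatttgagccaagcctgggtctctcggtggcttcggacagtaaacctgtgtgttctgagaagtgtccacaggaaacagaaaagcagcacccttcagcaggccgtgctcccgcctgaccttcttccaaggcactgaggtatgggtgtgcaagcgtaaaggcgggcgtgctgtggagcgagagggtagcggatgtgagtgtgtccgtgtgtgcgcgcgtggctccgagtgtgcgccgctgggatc

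The same 10 letters, GGGAATTTCC, stood 71 to 62 bases before the RefSeq start of Cxcl1, 97 to 88 bases before that of Cxcl2 and 73 to 64 bases before that of Cxcl3. Cxcl1 and Cxcl2 each held a further match, GGAAACACCC at 89 to 80 and GGGCTTTTCC at 78 to 69 bases. In Ccl20 the match was GGAAAACCCC at 80 to 71 bases. RefSeq windows were at hand for 45 of the 61 members, with 52 start sites, and 16 members, among them Ccl2, Cxcl16, Ccl7 and Cxcl5, had none. Of the 52 windows of 250 bases, 6 (11.5%) held this motif, against 1.41% of 32851 windows of all genes. The other 2 genes with a match were Ccl9 (GGAAAGCCCC at 35 to 26 bases) and Ccr3 (GGAAATTCCC at 179 to 170 bases). The letters TGANTCA, of the AP-1 type, were in 6 member windows (11.5%, against 6.75% of all windows), TTCNNNGAA, of the STAT type, in 4 (7.69%, against 7.02%), and the interferon response type (TTTC, any 2 bases, TTTC) in 3 (5.77%, against 2.98%). All 4 motifs were searched on both strands. In the Ccl9 and Ccr3 windows the NF-kB and AP-1 letters did not overlap each other. A match describes letters only, and related genes share sequence by descent.

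Across the 8 libraries the members took 0.0646 to 0.0937% of 62756328 to 73313449 reads per library: 0.0646 to 0.0784% in PBS and 0.0866 to 0.0937% in rFGF21 libraries. Levels between genes are compared as FPKM, computed here from the counts per kilobase of the gene's exons and per total reads of the library. No further scaling between libraries was applied to these values or to the shares of reads. A mean of at least 1 FPKM was reached by 23 members, 16 ligands and 7 receptors. Ccl9, a macrophage chemokine read by CCR1, had the highest mean over all libraries, 41.0 ± 2.93 FPKM in PBS and 64.6 ± 12.2 FPKM in rFGF21 (SD, n = 4 each, as for all levels in the text). Cxcl12, the ligand of CXCR4 that retains leukocytes in tissue, came next with 41.2 ± 4.45 and 34.7 ± 1.79 FPKM. In PBS these 2 neighbours in the order did not differ beyond their spread. Ccl2, Cxcl16, Cxcl1, Cxcl14 and Ccl6 followed, with means over all libraries from 18.9 to 12.4 FPKM. The receptor with the highest level was Cx3cr1, the receptor of CX3CL1 on monocytes and macrophages, with 7.12 ± 1.47 FPKM in PBS and 13.1 ± 4.18 FPKM in rFGF21. Over all libraries the mean level of Ccl9 was 5.2 times that of Cx3cr1. Ccr2 (3.22 ± 0.842 and 5.60 ± 1.16 FPKM), Ccr3, Cxcr4, Ccr1 and Cxcr6 were also over 1 FPKM.

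**Figure D1:**
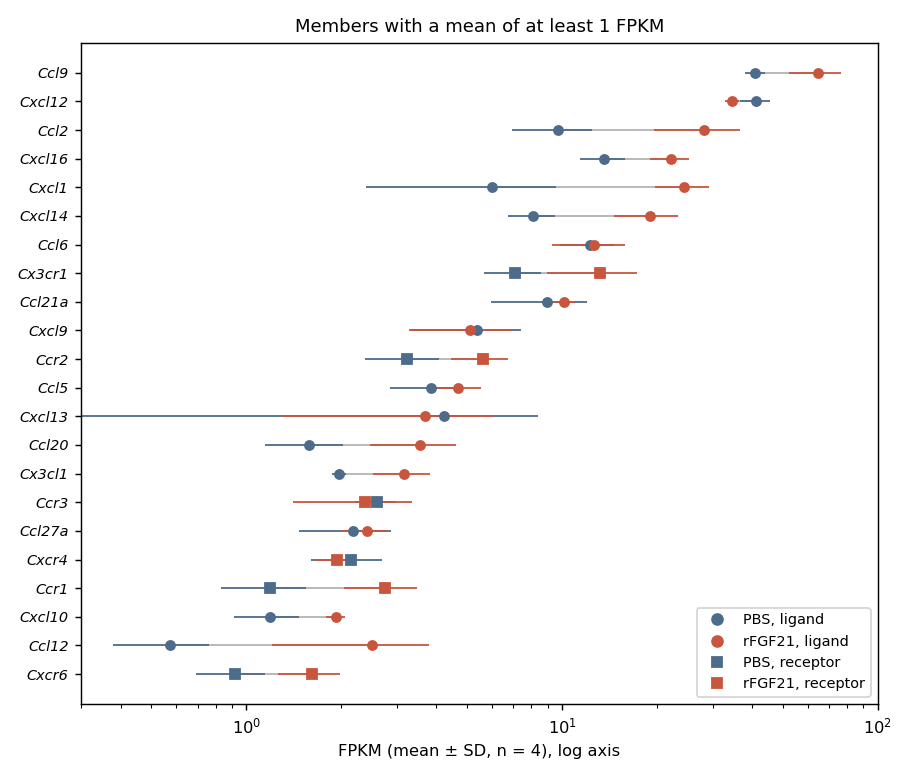
Levels of 22 of the 23 members with a mean of at least 1 FPKM, as mean ± SD of 4 libraries per group on a log axis (circles ligands, squares receptors, blue PBS, red rFGF21, grey line joining both means). Ccl9 and Cxcl12 stand at the top, Cxcl12 with the red symbol to the left of the blue, and Ccl12 has the widest gap between groups; the lower bar of Cxcl13 in PBS runs past the left edge.

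Summed over the 36 ligands, levels per length were 174, 167, 156 and 186 FPKM in PBS libraries 1, 2, 4 and 5. In rFGF21 libraries 1, 2, 3 and 5 the sums were 249, 256, 258 and 245 FPKM. All 4 rFGF21 sums lay above all 4 PBS sums, with means of 252 and 171 FPKM. Without Cxcl12 and Ccl9, the other 34 ligands summed to 76.7 to 103 FPKM in PBS and 143 to 161 FPKM in rFGF21. The 19 signalling receptors summed to 16.7 to 22.9 FPKM in PBS and 28.2 to 41.7 FPKM in rFGF21, again without overlap. The 4 atypical receptors summed to 1.35 to 2.95 and 1.23 to 2.32 FPKM, which overlap. Genes with high levels weigh most in such sums, which do not show how most members moved. Mean levels in PBS and rFGF21 were 5.99 and 24.4 FPKM for Cxcl1 and 9.68 and 28.1 FPKM for Ccl2. They were 8.10 and 19.0 FPKM for Cxcl14 and 13.6 and 22.1 FPKM for Cxcl16. Receptor levels were 7.12 and 13.1 FPKM for Cx3cr1, 3.22 and 5.60 for Ccr2, and 1.19 and 2.75 for Ccr1. Of the genes tested below, 10 of 32 ligands and 4 of 15 signalling receptors were lower after rFGF21 in the test on read counts. Ccl6, 1 of these ligands, had FPKM means of 12.2 in PBS and 12.6 in rFGF21 and so was not lower on FPKM. Cxcl12 and Ccl9 together held 62.7 to 65.7% of member reads in PBS and 46.5 to 57.3% in rFGF21 libraries. In RNA of a whole tissue, more or fewer cells of a type and more or less RNA per cell cannot be told apart.

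Differences between rFGF21 and PBS were tested gene by gene on read counts with edgeR's quasi-likelihood test, and p was adjusted over all genes by the Benjamini-Hochberg method; an adjusted p given without a tool's name comes from this test. Levels within a gene are given as CPM (read counts scaled to the library total with TMM factors), and differences as log2 fold changes of rFGF21 over PBS with their standard error (SE). After the count filter, 51 members were tested: 32 ligands, 15 signalling receptors and all 4 atypical receptors. Of these, 7 rose (adjusted p under 0.05) and 0 fell, 13.7% of the 51. Over all 18315 genes tested, 2.82% were called, 1.15% as higher and 1.67% as lower. The 7 were the ligands Cxcl14, Ccl2, Cxcl1, Cxcl16 and Cx3cl1 and the receptors Ccr1 and Cx3cr1. At an unadjusted p under 0.05 there were 17 members with a higher and 3 with a lower mean after rFGF21 (20 of 51; 18.8% of all genes). DESeq2, which over all genes called 676 higher and 735 lower, called 11 members higher and 1 lower. The lower member was Cxcl12 (DESeq2 adjusted p = 0.0424; range over the alternatives 0.0424 to 0.282). The number of higher members was 2 without PBS library 1, 3 without PBS library 2, PBS library 5, rFGF21 library 1 or rFGF21 library 5, and 5 or 6 without any of the others. On log2(FPKM + 0.1) values with limma, all genes split into 191 higher and 157 lower calls, against 210 and 306 on counts, and 5 members were higher. The FPKM, their sums and the shares of reads carry no TMM factor. These factors were 0.919 to 1.01 in PBS and 0.996 to 1.09 in rFGF21 libraries. The median log2 fold change over all genes was 0.0833 on these FPKM values and 0.0034 on counts.

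In 14 of the 51 tested members (27.5%) the groups did not overlap, 12 of them higher and 2 lower after rFGF21. Over all genes tested this held for 12.3%, 5.9% higher and 6.39% lower. Besides the 7 that rose, the 12 were Ccr2, Ccl20, Cxcl10, Cxcr2 and Ccl7, and the 2 lower members were Cxcl12 and Ccl25. Which members overlapped depended on the scaling. On FPKM, which carry no TMM factor, the groups of Cxcl12 and Ccl25 overlapped, while Ccl9, Ccl4 and Xcr1 were higher without overlap. The share of all genes without overlap on FPKM was not counted. The median log2 fold change was 0.21 over the tested members and 0.0034 over all genes tested. A positive log2 fold change was found in 33 members and a negative one in 17.

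Ligands and receptors were set side by side. Over all 18315 genes tested, 2.82% were called, and 9236 values were positive and 9073 negative. Among ligands 5 of 32 rose (15.6%). For ligands, 22 values were positive and the median log2 fold change was 0.28. Among signalling receptors 2 of 15 rose (13.3%), with a median of 0.37 and 10 positive values. None of the 4 atypical receptors passed, at a median of -0.21, and 0 of them had an unadjusted p under 0.05 (0 were called by DESeq2 or limma-voom as well). Counted together, the 19 receptors of both kinds had a median of 0.13. Leaving out rFGF21 library 2 took that median to -0.0411 and the ligand median to 0.14; leaving out PBS library 5 took them to 0.43 and 0.40, so their order is not the same in every set of 7 libraries. The 5 ligands and 2 receptors that rose were all among the 16 ligands and 7 receptors with a mean of at least 1 FPKM. In these subsets the medians were 0.59 and 0.72. Genes are not replicates, and the difference between the 2 kinds was not tested.

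**Figure D2:**
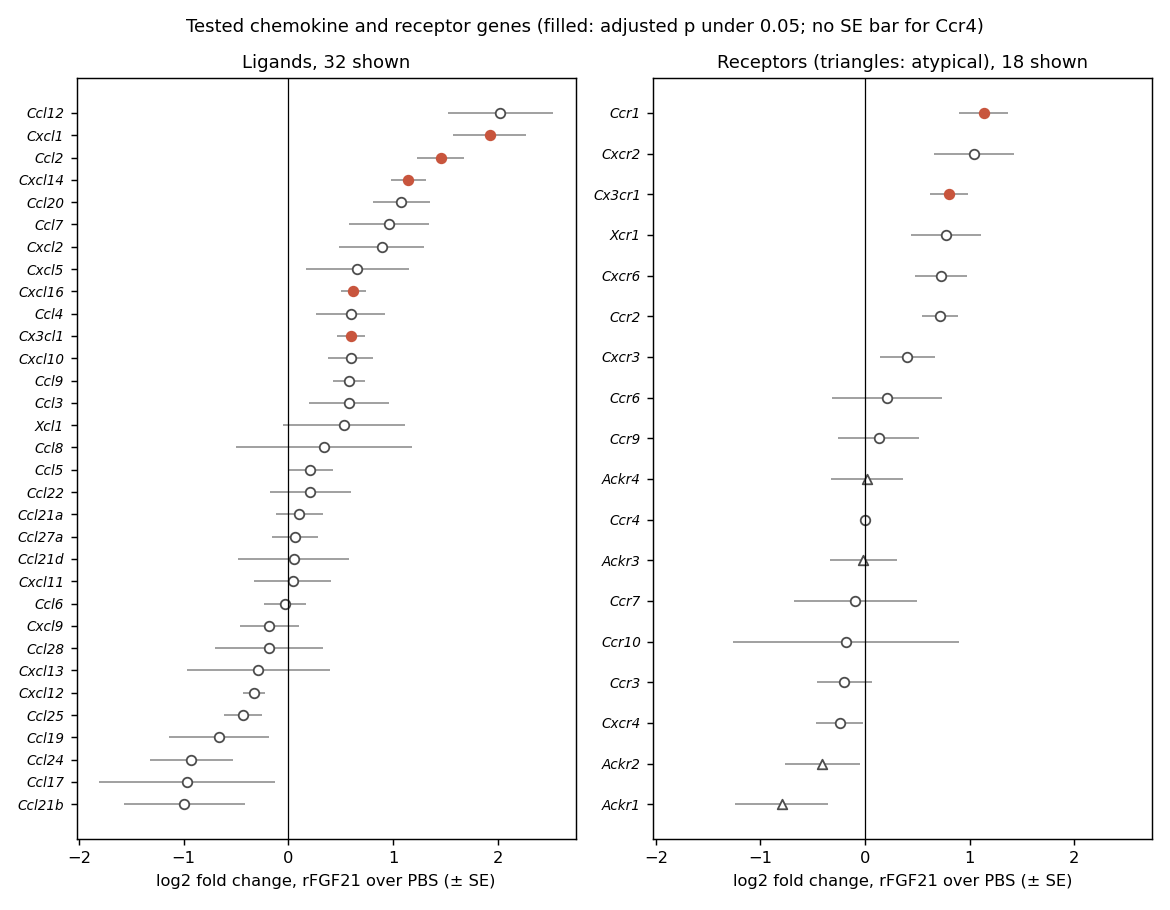
Log2 fold change of rFGF21 over PBS (± SE) for the 32 tested ligands and 18 of the 19 tested receptors, ordered by size (triangles atypical receptors, filled red symbols adjusted p under 0.05). The 5 filled ligands and 2 filled receptors all lie to the right of 0; Ccl12 has the largest value at 2.03 without passing, and Ccr4, at a log2 fold change of 0, is drawn without a bar because its SE, a ratio of values near 0, is unreliable.

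Cxcl1 (ENSMUSG00000029380, chromosome 5, 90891241 to 90893115), the neutrophil attractant read by CXCR2, had 9.02, 7.97, 23.1 and 6.93 CPM in PBS libraries 1, 2, 4 and 5. It had 36.2, 41.5, 57.1 and 43.3 CPM in rFGF21 libraries 1, 2, 3 and 5. All rFGF21 libraries were above all PBS libraries, and PBS library 4 stood well over the other 3 of its group. Cxcl1 rose 3.79-fold (log2 1.92 ± 0.35, adjusted p = 0.0202). Without PBS library 4 the log2 fold change was 2.48 (adjusted p = 0.000715). The call was lost without PBS library 1 (0.0646), PBS library 5 (0.0501), or rFGF21 library 1 (0.0516), 3 (0.05005) or 5 (0.0534), at log2 fold changes of 1.74 to 2.01. With all libraries kept, the call of Cxcl1 was lost only without a count filter (0.05035).

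The other CXCR2 ligands were far lower in level and none passed. Cxcl2 had 0.454, 0.267, 0.325 and 0.407 CPM in PBS and 0.426, 0.677, 0.507 and 1.10 CPM in rFGF21 libraries, with 1 rFGF21 library inside the PBS range (log2 0.89 ± 0.41, adjusted p = 0.270). Cxcl5 overlapped widely between groups, since PBS library 5 had 2.81 CPM against 0.483 to 0.975 CPM in the other PBS libraries (log2 0.66 ± 0.49, adjusted p = 0.518); without PBS library 5 the log2 value was 1.43 (adjusted p = 0.0915, range with 1 library left out 0.0915 to 0.759). Cxcl3, whose upstream window carries the same 10 letters as that of Cxcl1, had 48 reads in all and was not tested. Their receptor Cxcr2, carried by neutrophils, had 0.398, 0.299, 0.821 and 0.771 CPM in PBS and 0.826, 1.47, 1.08 and 1.32 CPM in rFGF21 libraries. Its groups did not overlap by a margin of 0.821 against 0.826 CPM, and it did not pass (log2 1.04 ± 0.38, adjusted p = 0.174).

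Ccl2 (ENSMUSG00000035385, chromosome 11, 82035571 to 82037453), the main monocyte attractant read by CCR2, had 11.97, 14.8, 10.2 and 8.18 CPM in PBS libraries 1, 2, 4 and 5. In rFGF21 libraries 1, 2, 3 and 5 it had 40.9, 20.5, 27.7 and 34.6 CPM. The groups did not overlap, although rFGF21 library 2 had only 20.5 CPM against 40.9 CPM in library 1. Ccl2 rose 2.75-fold (log2 1.46 ± 0.23, adjusted p = 0.0106). It kept its call whichever library was left out, at adjusted p of 0.00975 to 0.0391, and in all other alternatives but limma on log2(FPKM + 0.1) without a filter (adjusted p = 0.0611).

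Of the genes beside Ccl2 that are also read by CCR2, Ccl12 had 0.156, 0.346, 0.359 and 0.407 CPM in PBS and 0.373, 1.68, 1.31 and 1.81 CPM in rFGF21 libraries. Library 1 of rFGF21 lay within the PBS range and the other 3 well above it. The log2 fold change of 2.03 ± 0.50 was the largest of all members and did not pass (adjusted p = 0.0610); without rFGF21 library 1 it was 2.33 (adjusted p = 0.0337, range with 1 library left out 0.0337 to 0.159). DESeq2 called Ccl12 too (adjusted p = 0.00295), and the other alternatives with all libraries did not (0.0600 to 0.167). Ccl7 had 0.213 to 0.568 CPM in PBS and 0.626 to 1.06 CPM in rFGF21 libraries, without overlap (log2 0.96 ± 0.38, adjusted p = 0.206). Ccr2, which brings inflammatory monocytes into tissue, had 24.1, 27.1, 15.3 and 22.5 CPM in PBS and 31.1, 35.1, 35.0 and 45.2 CPM in rFGF21 libraries. Its groups did not overlap and its adjusted p of 0.0550 missed the threshold (log2 0.72 ± 0.17). No single library left out brought Ccr2 under it (adjusted p 0.0545 to 0.146), while DESeq2 (0.00238) and a filter of 1 CPM (0.0465) did, within a range of 0.00238 to 0.166 over the alternatives that kept all libraries.

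Cxcl14 (ENSMUSG00000021508, chromosome 13, 56288643 to 56296551), a chemokine of epithelial and stromal cells, had 15.1, 14.9, 12.5 and 18.4 CPM in PBS libraries 1, 2, 4 and 5. It had 44.8, 33.5, 26.9 and 29.8 CPM in rFGF21 libraries 1, 2, 3 and 5. The lowest rFGF21 library lay well above the highest PBS library. Cxcl14 rose 2.22-fold (log2 1.15 ± 0.17, adjusted p = 0.00887), and its call was kept with any 1 library left out (adjusted p 0.0132 to 0.0377) and in the other alternatives, where the largest adjusted p, 0.0404, came from limma on log2(FPKM + 0.1) without a filter.

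The membrane-bound chemokines Cxcl16 and Cx3cl1 are made as cell surface proteins with a mucin-like stalk and are shed by proteases. Cxcl16 (ENSMUSG00000018920, chromosome 11, 70453983 to 70459984), the ligand of CXCR6 on T and NKT cells, had 42.2, 42.1, 34.7 and 49.7 CPM in PBS and 68.2, 61.9, 56.9 and 72.3 CPM in rFGF21 libraries. Each rFGF21 library was above each PBS library, and Cxcl16 rose 1.54-fold (log2 0.62 ± 0.12, adjusted p = 0.0251). Leaving out PBS library 1 (0.0670), PBS library 2 (0.0572), rFGF21 library 1 (0.0878) or rFGF21 library 5 (0.0754) ended its call. With all libraries kept, the call of Cxcl16 was lost without a count filter (0.0534) and with limma on FPKM without a filter (0.0866). The receptor Cxcr6 had 1.38 to 2.43 CPM in PBS and 2.12 to 3.601 CPM in rFGF21 libraries, with overlap, and did not pass (log2 0.72 ± 0.25, adjusted p = 0.145).

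Cx3cl1 (ENSMUSG00000031778, chromosome 8, 94772009 to 94782427), also called fractalkine, had 7.88, 8.04, 7.87 and 8.004 CPM in PBS libraries, a coefficient of variation of 1.08%. In rFGF21 libraries it had 13.4, 10.9, 9.71 and 14.1 CPM, with more spread and no overlap. Cx3cl1 rose 1.51-fold (log2 0.60 ± 0.14, adjusted p = 0.0456). The call held with 7 libraries only when rFGF21 library 3 was the one left out (0.0400); without any other library it was lost, at adjusted p of 0.0686 (rFGF21 library 2) to 0.139 (rFGF21 library 1). Its receptor gene Cx3cr1 (ENSMUSG00000052336, chromosome 9, 119901616 to 120068296) had 36.1, 38.2, 26.2 and 30.7 CPM in PBS and 53.0, 51.8, 43.9 and 79.5 CPM in rFGF21 libraries. The groups did not overlap, and rFGF21 library 5 was far above the others. Cx3cr1 rose 1.74-fold (log2 0.80 ± 0.18, adjusted p = 0.0459). Its call too was kept only without rFGF21 library 3 (0.0454) and lost without any other library, at 0.0601 (PBS library 2) to 0.105 (rFGF21 library 1); leaving out rFGF21 library 5 brought the log2 fold change to 0.60. With all libraries kept, both were also called by DESeq2, with RLE scaling and with a filter of 1 CPM. Both calls were lost with limma-voom (Cx3cl1 0.0603, Cx3cr1 0.0502), without a count filter (0.0816 and 0.0947) and on FPKM values (0.0693 to 0.118 and 0.0844 to 0.157), and that of Cx3cr1 also with upper-quartile scaling (0.0513).

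Ccr1 (ENSMUSG00000025804, chromosome 9, 123962124 to 123968692), a receptor of monocytes, neutrophils and macrophages for CCL3, CCL5, CCL6 and CCL9, had 4.22, 3.99, 2.21 and 3.30 CPM in PBS libraries. It had 9.27, 5.97, 6.11 and 8.77 CPM in rFGF21 libraries. All rFGF21 libraries were higher than all PBS libraries, with 2 near 6 and 2 near 9 CPM. Ccr1 rose 2.19-fold (log2 1.13 ± 0.23, adjusted p = 0.0338). The call was lost on leaving out PBS libraries 1 (0.0559), 2 (0.0549) and 5 (0.0794) and rFGF21 libraries 1 (0.107) and 5 (0.0932), each in turn. With all libraries kept, the call was also lost without a count filter (0.0710) and with limma on FPKM values (0.0518 to 0.108).

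**Figure D3:**
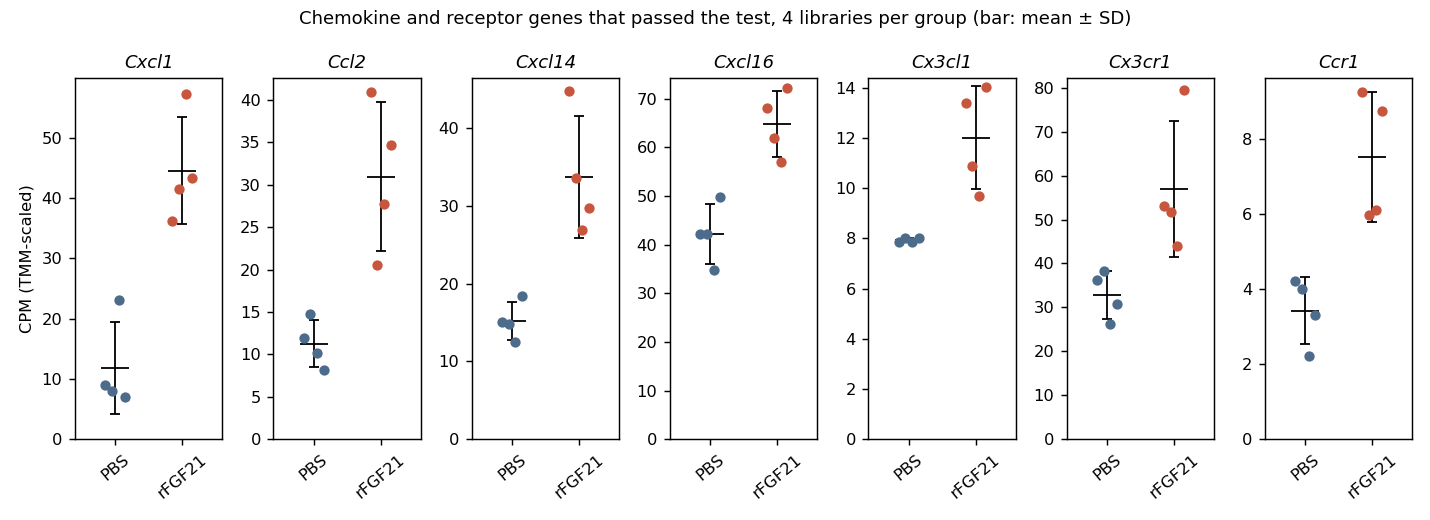
CPM of the 7 members that rose, 1 point per library (blue PBS, red rFGF21, bar mean ± SD, n = 4 each, each axis from 0). In every panel all red points lie above all blue points; in the Cxcl1 panel PBS library 4 at 23.1 CPM stands apart from the other blue points, and the blue points of Cx3cl1 almost coincide near 8 CPM.

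Ccl9, Ccl6, Ccl3, Ccl4 and Ccl5, most of them ligands of CCR1, did not pass. Ccl9 had 132, 120, 143 and 119 CPM in PBS and 177, 233, 220 and 139 CPM in rFGF21 libraries; only rFGF21 library 5 fell within the PBS range (log2 0.58 ± 0.15, adjusted p = 0.0747). Without that library the value was 0.71 and passed (adjusted p = 0.0337, range with 1 library left out 0.0337 to 0.165). Ccl6, a relative of Ccl9 in rodents, was read at 22.6 ± 4.26 and 22.1 ± 6.45 CPM (log2 -0.03 ± 0.20), with a sign that changed between alternatives. Ccl3 and Ccl4, made by activated macrophages and lymphocytes, had log2 fold changes of 0.58 ± 0.38 and 0.60 ± 0.33, and Ccl5, a product of T and NK cells, 0.21 ± 0.22.

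Ccl20, which draws CCR6-bearing Th17 cells and dendritic cells, had 2.78, 2.37, 1.47 and 2.58 CPM in PBS and 6.31, 2.98, 4.83 and 5.38 CPM in rFGF21 libraries. The groups did not overlap, with rFGF21 library 2 close to the PBS range (log2 1.08 ± 0.27, adjusted p = 0.0610). DESeq2 called Ccl20 (adjusted p = 0.00280), and the other alternatives with all libraries did not (0.0529 to 0.151). Without rFGF21 library 2 the value was 1.26 and passed (adjusted p = 0.0368, range with 1 library left out 0.0368 to 0.163). Ccr6 was low, at 0.322 ± 0.227 and 0.373 ± 0.0952 CPM, and its adjusted p was 0.875.

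The interferon-induced ligands of CXCR3 gave values on both sides of 0. Cxcl10 had 2.37, 1.93, 3.56 and 3.27 CPM in PBS and 4.53, 4.53, 3.96 and 3.82 CPM in rFGF21 libraries, without overlap (log2 0.60 ± 0.22, adjusted p = 0.165). Cxcl9 had 11.4 to 25.8 and 10.47 to 21.3 CPM (log2 -0.18 ± 0.28), and Cxcl11 had 0.519 to 1.04 and 0.519 to 1.05 CPM (log2 0.04 ± 0.37). GENCODE M21 types Cxcl11 as a polymorphic pseudogene, and it was counted here among the ligands. The receptor of these 3 ligands, Cxcr3, of activated T cells, had a log2 fold change of 0.40 ± 0.26 (adjusted p = 0.442).

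The homeostatic ligand Cxcl12 had 350, 320, 319 and 396 CPM in PBS and 265, 306, 275 and 257 CPM in rFGF21 libraries. In CPM every rFGF21 library was below every PBS library, and the difference did not pass (log2 -0.33 ± 0.11, adjusted p = 0.126). On FPKM the groups overlapped, with 37.2 in rFGF21 library 2 and 35.9 in PBS library 4. Its receptor Cxcr4 was read at 4.03 ± 1.14 and 3.40 ± 0.531 CPM (log2 -0.24 ± 0.22), and Ackr3, which clears CXCL12, at 1.42 ± 0.531 and 1.40 ± 0.234 CPM. Ccl25, the gut and thymus ligand of CCR9, was the other member that was lower without overlap in CPM. It had 3.63 to 5.66 CPM in PBS and 3.14 to 3.44 CPM in rFGF21 libraries (log2 -0.43 ± 0.18, adjusted p = 0.224). On FPKM its groups overlapped by a small margin, with 0.4884 in rFGF21 library 5 and 0.4871 in PBS library 1.

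Ligands of other cell types did not pass either. The CCR7 ligands of lymphoid tissue, Ccl21a and Ccl19, had log2 fold changes of 0.11 ± 0.22 and -0.66 ± 0.48, and Ccr7 -0.09 ± 0.59. Ccl24, an eosinophil attractant, had 0.844 to 2.07 CPM in PBS and 0.410 to 1.07 CPM in rFGF21 libraries (log2 -0.93 ± 0.40, adjusted p = 0.239), and its receptor Ccr3 a log2 fold change of -0.20 ± 0.26. Xcr1, the receptor of cross-presenting dendritic cells, reached 0.77 ± 0.34 (adjusted p = 0.245) and its ligand Xcl1 0.53 ± 0.58. Cxcl13, the B cell attractant, varied most among the ligands over 1 FPKM: it had 3.93, 0.991, 3.01 and 12.3 CPM in PBS and 1.505, 6.62, 6.52 and 2.01 CPM in rFGF21 libraries. Each group of Cxcl13 thus held both low and high libraries, and the log2 fold change was -0.29 ± 0.68. Ccl17, Ccl21b, Ccl22, Ccl21d, Ccl27a, Ccl28, Ccl8 and Ccr4, Ccr9 and Ccr10 had adjusted p-values between 0.390 and 1.

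The atypical receptors were low. Ackr1, which carries chemokines across venules, had 1.49, 1.02, 0.838 and 0.684 CPM in PBS and 0.306, 0.946, 0.767 and 0.304 CPM in rFGF21 libraries, with overlap (log2 -0.80 ± 0.45, adjusted p = 0.371). Ackr2, which degrades inflammatory CC chemokines, had a log2 fold change of -0.41 ± 0.36, and Ackr4, which clears CCL19, CCL21 and CCL25, one of 0.02 ± 0.34.

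The 10 members too low to test were Ccl11, Cxcl3, Cxcl17, Ccl27b, Ccr8, Ccr1l1, Cxcr1, Cxcr5 and the pseudogenes Ccl19-ps1 and Ccl19-ps3, with 5 to 121 reads over the 8 libraries. The filter asked for at least 0.141 CPM, or about 10 reads, in 4 libraries. Of the 51 tested members 44 passed it in all 8 libraries. In 2 members (Ccr10 and Ccl21d) all rFGF21 but not all PBS libraries were over it, in 1 (Ccl21b) the reverse, and in 4 (Ccl17, Xcl1, Ccl8 and Ccr4) neither group was complete. None of these 7 passed the test.

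Many members lie next to one another, and neighbours did not all move alike (build GRCm38, coordinates as in the deposited table). For comparison, 2.82% of all 18315 genes tested were called and 18.8% had an unadjusted p under 0.05. Values over all genes were positive in 9236 and negative in 9073. On chromosome 11, Ccl2, Ccl7, Ccl11, Ccl12 and Ccl8 span 81.2 kb; 1 of the 4 tested rose and all 4 had positive values, with a median of 1.21. A further 138.9 kb on the same chromosome hold Ccl5, Ccl9, Ccl6, Ccl3 and Ccl4, of which 0 of 5 passed (1 at an unadjusted p under 0.05, and 1 by DESeq2, Ccl9) and 4 were positive (median 0.58). Cxcl5, Cxcl3, Cxcl1 and Cxcl2 span 146.6 kb of chromosome 5, with 1 of 3 tested passing and 3 positive (median 0.89), while Cxcl9, Cxcl10 and Cxcl11 on the same chromosome had a median of 0.04. Among receptor genes that lie near one another on chromosome 9, Ccr1 rose, while Ccr9 (log2 0.13), Cxcr6 (0.72), Xcr1 (0.77), Ccr2 (0.72) and Ccr3 (-0.20) did not pass. The 8 members of the Ccl21 and Ccl27 region of chromosome 4, a stretch with duplicated genes over 1004.5 kb, had 0 of 5 passing (0 also at an unadjusted p under 0.05 and by DESeq2) and a median of 0.05.

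**Figure D4:**
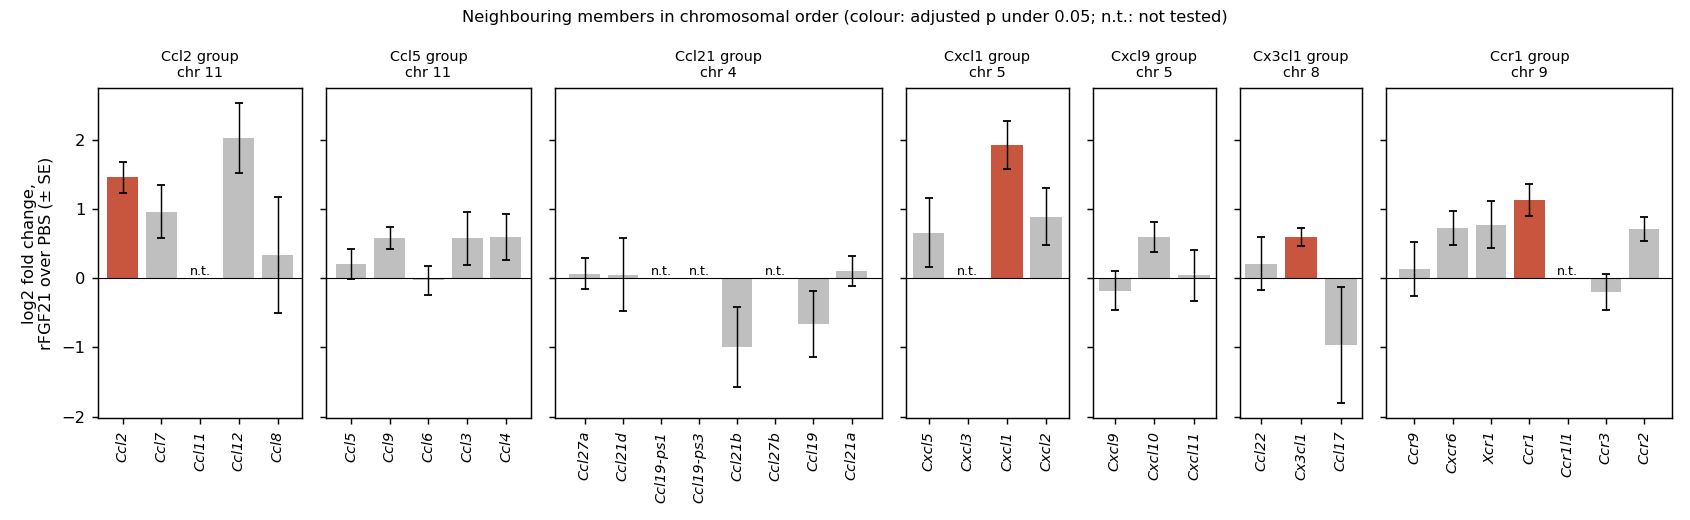
Log2 fold change of rFGF21 over PBS (bars, ± SE) of neighbouring members in the order in which they lie on the chromosome, from groups of at least 3 (colour adjusted p under 0.05, n.t. not tested). In the Ccl2 group all 4 tested bars point up and only Ccl2 is coloured; the Ccl21 group on chromosome 4 has its largest bars pointing down.

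Counts of some members may include reads of other genes. Some overlaps are on the opposite strand, where no source at hand states the strand setting of the counting, and some are on the same strand. Cxcl16 overlaps Zmynd15 on the opposite strand, which had 708 to 1508 reads per library. The span of Cx3cr1 in the table holds several genes, among them Wdr48 (1640 to 2376 reads) on the opposite strand. Gorasp1 (2298 to 3345 reads) and Csrnp1 (702 to 1792 reads) lie within it on the same strand, where no strand setting would part them. Ackr1, with 23 to 105 reads per library, overlaps Cadm3 (136 to 363 reads), also on the same strand. The coordinates of Cx3cr1 in the table differ from GENCODE M21, while its FPKM rests on the M21 exon length. Ccl25 overlaps Elavl1, Ccl27a overlaps Il11ra1, Cxcr6 overlaps Fyco1, Ackr4 overlaps Acad11 and Ccr9 overlaps Lztfl1, all on the opposite strand. Ccr10 (0 to 39 reads per library) overlaps Cntnap1 (151 to 329 reads), likewise on the opposite strand. Values of the near-identical copies Ccl21a, Ccl21b and Ccl21d, of Ccl27a and Ccl27b, and of Ccl19 and its pseudogenes are uncertain because the counting could split reads between copies. Ccr1 and its neighbour and relative Ccr1l1 had 3135 and 40 reads in all, and how far they share sequence was not tested.

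Genes that act with chemokines were read from 4 lists. Among 23 tested genes of chemokine induction and NF-kB feedback, 4 rose and 0 fell (17.4%, against 2.82% of all genes); 17 values were positive and the median log2 fold change was 0.32. At an unadjusted p under 0.05 there were 11 higher and 1 lower (18.8% of all genes in either direction). DESeq2 called 10 higher and 1 lower (676 and 735 over all genes). The lower gene was Zfp36 (log2 -0.63, DESeq2 adjusted p = 0.0214), whose product destabilizes cytokine mRNA. Nfkbie, an inhibitor that NF-kB itself induces, had 12.3 to 18.0 CPM in PBS and 24.2 to 30.4 CPM in rFGF21 libraries and rose (log2 0.88 ± 0.13, adjusted p = 0.00898). Nfkb2, a subunit of NF-kB (0.60 ± 0.11, adjusted p = 0.0178), Irf1, an interferon-response transcription factor (0.70 ± 0.12, 0.0161), and Ifngr1, a chain of the interferon gamma receptor (0.48 ± 0.09, 0.0264), rose as well. With 1 library left out, Nfkbie kept its call throughout (adjusted p 0.0115 to 0.0384), Nfkb2 lost it without rFGF21 library 1 (0.0654), Irf1 without rFGF21 library 1 (0.0581) or 5 (0.0534), and Ifngr1 when any of 5 libraries was dropped, namely PBS 1 and 5 and rFGF21 1, 2 and 5 (0.0589 to 0.0932). Tnf, which induces Cxcl1 and Ccl2 in many cells, had 0.830 to 1.505 CPM in PBS and 1.38 to 5.02 CPM in rFGF21 libraries, with overlap (log2 1.39 ± 0.37, adjusted p = 0.0748; 0.00504 with DESeq2). The cytokine genes Il6, Il17a and Ifng were too low to test. Of 15 adhesion molecules of leukocyte entry 1 rose and 0 fell (6.7%, against 2.82% of all genes; median 0.30): Icam1, the endothelial partner of leukocyte integrins, went from 55.3 ± 2.92 to 88.4 ± 9.23 CPM (log2 0.68 ± 0.09, adjusted p = 0.00688) and kept its call whichever library was left out (0.0120 to 0.0331). In this list 6 genes were higher and 0 lower at an unadjusted p under 0.05 (18.8% of all genes in either direction). DESeq2 also called Itgam, an integrin chain of myeloid cells (DESeq2 adjusted p = 0.00543; edgeR 0.0748).

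Of 34 tested genes of signalling below the receptors (G-protein subunits, kinases, arrestins and regulators of G-protein signalling), 0 rose and 1 fell, which at 2.9% is near the 2.82% of all genes; the median was 0.16 with 29 positive values. The gene that fell was Ptk2b, a calcium-dependent tyrosine kinase, with 62.6 to 73.2 CPM in PBS and 49.6 to 53.0 CPM in rFGF21 libraries (log2 -0.35 ± 0.08, adjusted p = 0.0459); its call was kept only without PBS library 4 (0.0487) and lost without any other library (0.0751 to 0.123). In this list 7 genes were higher and 2 lower at an unadjusted p under 0.05 (18.8% of all genes), and DESeq2 called 2 higher and 2 lower. Rgs1, a regulator that turns off chemokine receptor signals, had a log2 fold change of -1.25 ± 0.45 and did not pass (adjusted p = 0.162). Of 10 chemokine-like proteins and receptors outside the naming pattern, such as Mif, Pf4, Ppbp, Rarres2 and Ccrl2, 0 passed in edgeR. At an unadjusted p under 0.05 there were 1 higher and 2 lower (18.8% of all genes). DESeq2 called 1 of the 10, Mif, lower. Mif, a cytokine that binds CXCR2 and CXCR4, had 83.5 to 103 CPM in PBS and 62.1 to 78.7 CPM in rFGF21 libraries, without overlap (log2 -0.40 ± 0.10, adjusted p = 0.0654).

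Leukocyte markers were read beside the members, since chemokine receptors are carried mostly by leukocytes. None of the 64 tested markers in 14 lists passed in edgeR; 14 were higher and 1 lower at an unadjusted p under 0.05 (18.8% of all genes), 5 were called higher by DESeq2 (Cd52, Coro1a, Cd8a, Krt19 and Sox9) and 0 by limma-voom. Over all genes DESeq2 called 676 higher and 735 lower. The 4 markers of all leukocytes summed to 98.8 to 142 CPM in PBS and 136 to 159 CPM in rFGF21 libraries, with 4 of 4 log2 fold changes positive. The 5 monocyte markers summed to 26.8 to 34.7 CPM and 32.4 to 57.4 CPM, 5 of 5 positive (median 0.70). Of the 8 neutrophil markers 7 were tested and all 7 were positive (sums 11.6 to 18.9 and 13.5 to 27.7 CPM, median 0.69), while Ly6g was too low to test. The 6 Kupffer cell markers had a median of -0.57, 1 of 6 being positive, and sums of 392 to 686 CPM in PBS and 165 to 550 CPM in rFGF21 libraries. T cell markers summed to 11.3 to 14.5 and 12.2 to 15.7 CPM (median 0.19, 4 of 6 positive), and cholangiocyte markers to 171 to 265 and 237 to 368 CPM (median 0.62, 6 of 6 positive). Medians were -0.03 for B cell, -0.23 for NK cell, 0.35 for dendritic cell, -0.15 for endothelial, 0.15 for stellate cell and -0.38 for megakaryocyte markers. The sums of each of these lists overlapped between the groups. The part of these marker differences in the differences of the chemokine and receptor genes was not tested. The labels name liver, and the protocol text also names retina: Alb stood at 42570 to 63440 CPM in the 8 libraries, while the photoreceptor genes Crx and Rcvrn were at 0 in all 8 libraries (a count of 0 allows up to 3 reads per library, counting error only), and Pde6b stayed under 0.2 CPM.

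**Figure D5:**
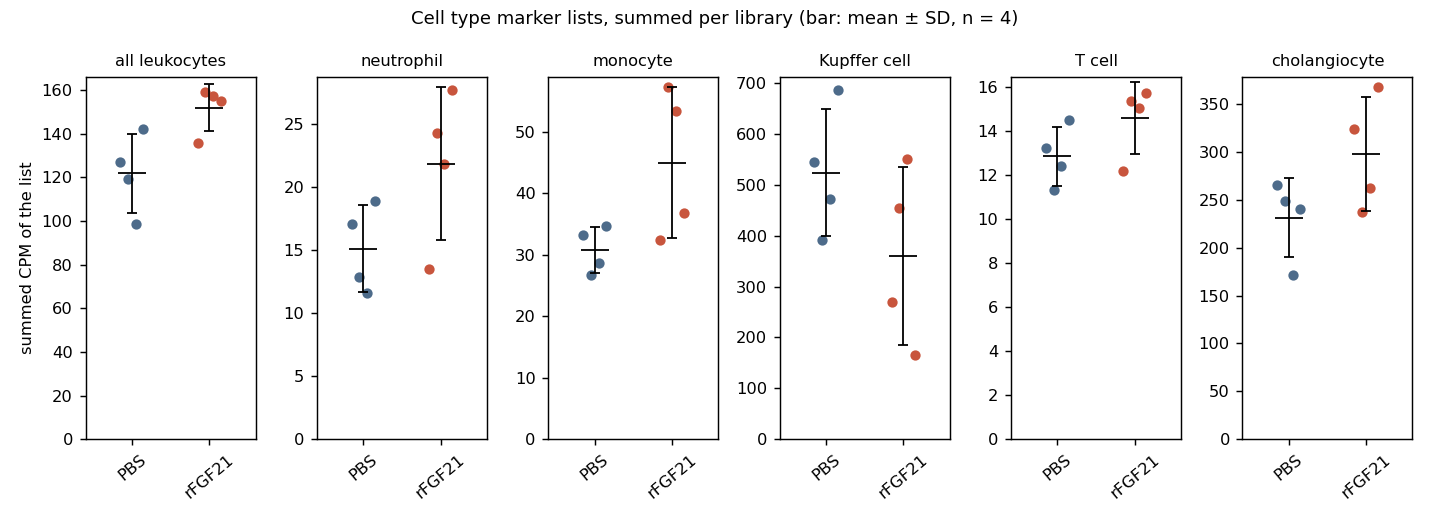
Summed CPM of 6 marker lists, 1 point per library (blue PBS, red rFGF21, bar mean ± SD, n = 4 each, each axis from 0). Red means lie above blue means in all panels but that of Kupffer cells, and in each panel red and blue points overlap in range.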

How the data were processed

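Liver RNA of 8 libraries was compared. The deposited table holds read counts per gene, per the file headers, for 5 columns per group, of which the 4 that the header also lists with FPKM were used; 10 per-sample columns (2 of counts, and 8 of the authors' FPKM) were not. The submitters' processing notes list Bowtie 0.12.2 and mm8, with no role, yet of 30177 genes found in GENCODE M21 (GRCm38), 27285 (90.4%) had identical coordinates there, as had 54 of the 61 members, so coordinates are given as GRCm38. The sources used here do not give the counter or its strand setting. Column numbers and sample numbers differ, so columns were mapped to groups and libraries carry the column's number.

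Counts were filtered (filterByExpr: 10 reads in 4 libraries at the median depth), scaled by TMM and tested two-sided with edgeR 4.0.16 in R 4.3.3 (glmQLFit, glmQLFTest), with Benjamini-Hochberg adjustment over 18315 genes; limma 3.58.1 and DESeq2 1.42.0 were alternatives. The design allowed for FPKM or counts, and counts were used because the table holds them. FPKM were computed from the counts with GENCODE M21 exon lengths (joined exons; 89 genes without a length were left out) in place of the deposited FPKM that the alternatives named. Steps were tested on simulated data. In counts simulated with known changes, the main test recovered 16.3% of 1.5-fold, 55.1% of 2-fold, 78.7% of 4-fold and 92% of 8-fold changes. Of its 125 calls there, 7 (5.6%) were false. A member that did not pass can thus still differ by 1.5-fold to 2-fold. Standard errors follow from the F statistic. No pair of libraries was within sampling noise (chi-square over degrees of freedom at least 47.58). Alternatives were other scalings, filters, tools, pseudocounts of 0.1 and 1 on FPKM, and each library left out. Depth, 62756328 to 73313449 reads, limits genes near 10 reads.

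Named with values are members that passed, the 8 ligands and 8 receptors highest in FPKM, the 8 ligands and 6 receptors with the smallest p, and all partners of members that passed; other members were named after their values were seen. Members, lists and markers were chosen with earlier results of these data known. Values of 1 member are not reported here, and the figures leave it out; counts over members include it.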

Additional observations from a re-analysis of the deposited data

Results flagged for a closer look

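Cxcl1 in PBS library 4 stood at 23.1 CPM, while the other 3 PBS libraries had 6.93 to 9.02 CPM. The gap to its nearest neighbour was 0.871 of the whole range of the group, past the value that Dixon's test allows for 4 samples. It was the only such case among 102 groups of 4 libraries (51 members, 2 groups each), where chance alone gives about 1 in 20. The library was still below all 4 rFGF21 libraries, the lowest of which had 36.2 CPM. Without it the log2 fold change of Cxcl1 was 2.48 (edgeR adjusted p = 0.000715), against 1.92 with it.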

How the results depend on the processing

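The number of higher members, 7, was 2 without a count filter, 11 with DESeq2, 4 with limma on log2(FPKM + 1) and 2 on log2(FPKM + 0.1) without a filter; the 5 higher ligands became 2 without a count filter, 8 with DESeq2 and 2 on FPKM without a filter, and DESeq2 called 1 member, a ligand, lower. The 2 higher receptors became 1 with upper-quartile scaling or limma-voom, and 0 without a count filter and with limma on log2(FPKM + 0.1), log2(FPKM + 1) or FPKM without a filter. With 1 library left out, 2 to 6 members, 2 to 5 ligands and 0 to 2 receptors were higher. Over all genes, higher calls were 85 without a count filter, 676 with DESeq2 and 51 on FPKM without a filter; lower calls were 113, 735 and 49, and 157 and 137 on FPKM with pseudocounts of 0.1 and 1. With 1 library left out they were 51 to 198 and 80 to 288. The ligand median of 0.28 was 0.59 with a filter of 1 CPM and 0.14 to 0.40 with 1 library left out. The median of all 19 receptors, 0.13, was 0.39 with that filter, 0.36 with limma-voom and -0.0411 to 0.43 with 1 library left out. The filters change how many genes are tested and the left-out sets have fewer samples; other causes were not tested.

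The sign turned for Ccl6 only on FPKM (0.0240 at a pseudocount of 0.1, with or without a filter, and 0.0233 at 1) and on leaving out PBS libraries 1 (0.0087) and 5 (0.0900) and rFGF21 libraries 1 (0.0471) and 5 (0.112; range with 1 library left out -0.19 to 0.112), and for Ccl21a without PBS library 4 (-0.0654; range -0.0654 to 0.293), among the 26 members named by rule. No paired analysis was possible because the columns carry numbers that do not match the sample numbers, so no column could be tied to a numbered sample. Depth leaves members near 10 reads, such as Ccr10 and Ccl17, with SE too wide to show 2-fold differences.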
